A study of Mus musculus with 2 samples.

Results

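The genes described here are the 3 members of the mir-135 family (Mir135b, Mir135a-1 and Mir135a-2) and the miRNA gene Mir1251, which shares the host gene Rmst with Mir135a-2. They were taken by gene symbol from 1973 miRNA genes, and 4 of 4 were found in both libraries. The libraries came from midbrain of mouse embryos of strain B6NCrl at embryonic day 16.5, healthy and of mixed sex, with no treatment and no altered genotype. They formed 1 group of 2 biological replicates, called pools here. The labels give 37 embryos for the pool of replicate 2 and no number for replicate 1. With 1 group, no condition could be compared. The measurements concern the level of each gene, the balance among the family's copies and the agreement between the pools.

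A miRNA gene is transcribed as a longer RNA that is cut to a hairpin and then to a short duplex, of which the arm loaded into Argonaute pairs with target mRNAs through its seed, bases 2 to 8. The mir-135 genes are 1 family because their 5p arms share a seed. In the mouse midbrain, Mir135a-2 is known as a target of the transcription factor Lmx1b that restrains Wnt signalling and the pool of dopaminergic progenitors. miR-135a is also known to repress the serotonin transporter Slc6a4 and the receptor Htr1a in mouse serotonergic neurons, and in human cells the family represses the Wnt pathway inhibitor APC. Rmst is a long noncoding RNA expressed in the midbrain floor plate, whose human counterpart binds SOX2 in neural stem cells.

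The mature sequences are shown because they decide which reads can be told apart between the genes. They are RefSeq entries on build GRCm38.p6, written 5′ to 3′ with the seed in capitals, and 4 hairpins and 7 mature entries were matched to the genes by symbol. The arm miR-135b-5p is named only.
miR-135a-5p, made from Mir135a-1 (chr9:106154140-106154162, plus strand) and from Mir135a-2 (chr10:92072141-92072163, minus strand): uAUGGCUUuuuauuccuauguga
miR-135a-1-3p (chr9:106154179-106154200, plus strand): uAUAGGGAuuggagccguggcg
miR-135a-2-3p (chr10:92072104-92072124, minus strand): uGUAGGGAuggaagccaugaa
miR-135b-3p (chr1:132198142-132198163, plus strand): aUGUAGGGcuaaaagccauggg
miR-1251-5p (chr10:92137190-92137210, minus strand): aCUCUAGCugccaaaggcgcu
miR-1251-3p (chr10:92137152-92137172, minus strand): cGCUUUGCucagccaguguag

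These entries carry 6 distinct seeds. The seed AUGGCUU of miR-135a-5p pairs with the target letters AAGCCAU. The 3p arms of the family differ in all 3 seeds, and none of these, nor either seed of Mir1251, was listed for another gene of the tables. Among all 1398 distinct seeds of the 1738 mature entries, 216 (15.5%) were listed for more than 1 gene. Aligned without gaps, miR-135a-1-3p and miR-135a-2-3p were identical at 15 of 21 bases, miR-135b-3p and miR-135a-2-3p at 16 of 21, and miR-135b-3p and miR-135a-1-3p at 14 of 21.

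The mir-135a copies share 1 long stretch. Their hairpins have a run of 24 bases in common, which holds all 23 nt of miR-135a-5p and 1 base more. It is printed here in capitals with 3 bases on each side, which show where the copies part.
Mir135a-1 (chr9:106154137-106154166, plus strand): cucUAUGGCUUUUUAUUCCUAUGUGAUucu
Mir135a-2 (chr10:92072137-92072166, minus strand): cuuUAUGGCUUUUUAUUCCUAUGUGAUcgu

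A read that lies wholly inside this run matches both copies. Inserts were below 30 nt, so a read of miR-135a-5p tells the copies apart only by bases beyond the run, while each 3p arm was found in 1 hairpin only. Of all stretches of 22 bases, 3 of 69 in the Mir135a-1 hairpin and 3 of 79 in the Mir135a-2 hairpin occurred in another hairpin. The corresponding count was 0 of 76 for Mir135b and 0 of 63 for Mir1251. These are counts of stretches and not shares of reads, and the whole of miR-135a-5p lies in the shared run. The longest run that the Mir135b hairpin shared with any other of 1005 hairpins was 14 bases, with Mir135a-1, and that of Mir1251 was 12 bases, with Mir222. Among detected genes (10 or more sense-strand reads in each library) with a hairpin sequence, 48 of 354 (13.6%) shared a run of 24 bases or more with another hairpin. The tables give reads per gene and not per arm, and reads that map to several places are listed only as a total for the library, so the levels of the mir-135a copies cover the counted reads alone.

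**Figure D1:**
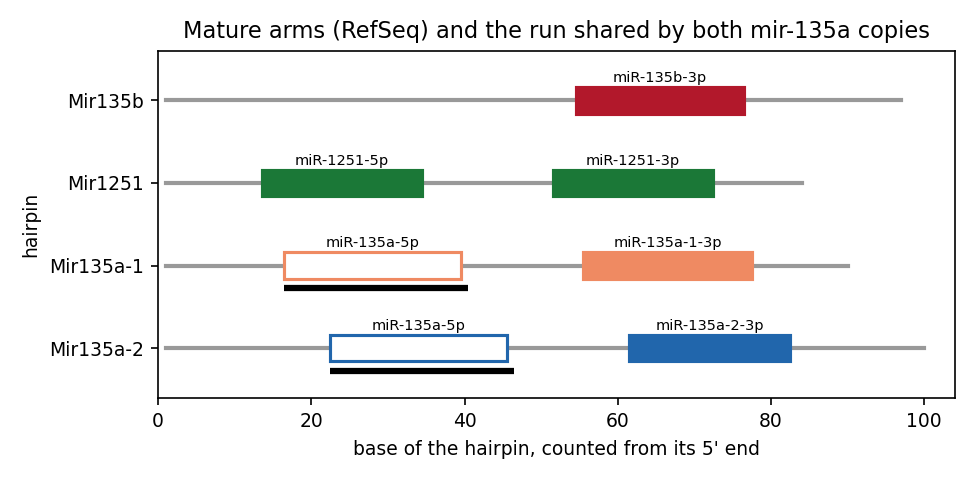
The 4 hairpins drawn to scale, with the base counted from the 5′ end on the x axis; boxes are the mature arms listed in the sequence table, filled where the arm occurs in 1 hairpin and open where it occurs in 2, and the black bar is the 24-base run. The run covers the whole 5p arm of Mir135a-1 (bases 17 to 40 of the hairpin) and of Mir135a-2 (bases 23 to 46). The arm miR-135b-5p is not drawn because it had no entry among the sequences used.

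Read totals set the precision of the levels. Replicate 1 held 6151299 sense-strand reads over all miRNA genes and replicate 2 held 5312642. Levels are given as CPM, the reads of a gene scaled to a common library total of sense-strand reads, and 1 read was worth 0.163 CPM in replicate 1 and 0.188 CPM in replicate 2. A further 35.3% and 36.5% of each library's reads mapped to several places. As a check of the tissue, the 10 analysed genes of a list of neurons and neural progenitors held 5.07% and 5.08% of sense reads, with Mir149 at 25498 ± 892 CPM and Mir137 at 15108 ± 1072 CPM (mean ± SD, n = 2). These led the list, in which 8 of the 10 genes were detected. Its low end held Mir124a-1 at 5.04 CPM, Mir124a-2 at 3.86 CPM, Mir9-2 at 1.34 CPM and Mir124a-3 at 0.54 CPM. From the layout of the counts, reads that match several gene copies appear to enter only the total of reads mapping to several places. For families with several copies, such as mir-124 and mir-9, these values therefore cover the counted reads alone. Markers of other cells that a dissection can carry were also present. Endothelium, through Mir126a alone (23939 ± 1233 CPM), held 2.31% and 2.48%, and mesenchyme and mural cells (6 genes) held 1.09% and 1.04%. The share was 0.246% and 0.203% for choroid plexus and pigment epithelium (2 genes), 0.133% and 0.0689% for epithelium (7 genes) and 0.0410% and 0.0487% for blood (4 genes). It was 0.00182% and 0.00177% for muscle, which rested on 1 detected gene, while Mir1a-1, Mir133a-1 and Mir133a-2 had 0 counted reads. The limit on copies applies to these genes too, so 0 counted reads do not show that they were absent. In such bulk tissue, fewer cells of a type, less RNA per cell and uncounted reads that map to several places cannot be told apart.

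In counted reads, Mir135b was by far the most abundant of the 4 genes. Its hairpin shared no stretch of 22 bases with another hairpin, while reads inside the mir-135a run match both copies. The part of such reads in this lead was not tested. Mir135b lies on chromosome 1 (132198088 to 132198184, plus strand, 97 bases, ENSMUSG00000065435.1), in an intron of both Lemd1 transcripts that span it and of AC124108.1, all on its own strand. It had 83243 reads in replicate 1 and 64413 reads in replicate 2, or 13533 and 12125 CPM. Its mean was 12829 ± 996 CPM (SD, n = 2), and it was the 16th most abundant gene in each library. The mean lay above 96.1% of the 411 detected genes, whose median was 108 CPM.

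The genes next to Mir135b in level were all separated from it in both pools. Above it stood Mir137, a regulator of neuronal differentiation, at 15865 and 14350 CPM in replicates 1 and 2, and Mir181c at 16694 and 15588 CPM. Below it stood Mir30a at 11069 and 10516 CPM and Mir127, an imprinted miRNA of the Dlk1-Dio3 domain, at 9525 and 10677 CPM. The lowest value of Mir135b exceeded the highest of Mir30a and Mir127, and its highest value lay under the lowest of Mir137 and Mir181c.

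Mir135a-1 lies on chromosome 9 (106154124 to 106154213, plus strand, 90 bases, ENSMUSG00000065407.1). On its own strand it is in an intron of the antisense RNA gene D030055H07Rik. On the opposite strand all 90 bases fall in the 3′ untranslated exon of Glyctk, the glycerate kinase gene, in 2 transcripts. The count tables hold 0 reads on the strand opposite Mir135a-1, and also 0 opposite each of the other 3 genes, in both libraries. Mir135a-1 had 2587 and 1903 reads, which is 421 and 358 CPM, with a mean of 389 ± 44.1 CPM (SD, n = 2) and rank 140 of all genes.

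The closest miRNA gene to Mir135a-1 was Mirlet7g, a let-7 gene on the same strand 24626 bases away. Mirlet7g stood at 67762 and 73408 CPM, far above Mir135a-1, so neighbours on this stretch of chromosome 9 had very different read levels. For Mir135b the closest analysed miRNA gene was Gm24273, 699285 bases away, with 0 reads in both libraries. Mir9-3, a miRNA gene of neural progenitors, and Mir700 stood just above Mir135a-1 at 405 ± 59.6 and 422 ± 3.14 CPM. Mir25, of the mir-106b-25 cluster, and Mir874 stood just below at 378 ± 49.3 and 375 ± 24.9 CPM. The pools' values of Mir135a-1 overlapped those of all 4 genes, so its place among them is not resolved.

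Mir135a-2 lies on chromosome 10 (92072086 to 92072185, minus strand, 100 bases, ENSMUSG00000065524.1), 1049 bases from the 3′ end of Rmst and in an intron of the 2 Rmst transcripts that span it. It had 1969 and 1660 reads, or 320.1 and 312 CPM, and was the steadiest of the 4 genes at 316 ± 5.40 CPM (SD, n = 2), rank 153. Mir210, a miRNA induced by hypoxia, and Mir669o stood next above it at 345 ± 45.9 and 336 ± 24.7 CPM. Next below it were Mir496a of the Dlk1-Dio3 domain at 310.1 ± 29.6 CPM and Mirlet7a-1 at 283 ± 54.5 CPM. Again the values of the pools overlapped for all 4 neighbours.

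Mir1251 lies on chromosome 10 (92137140 to 92137223, minus strand, 84 bases, ENSMUSG00000093227.1), 27947 bases from the 5′ end of Rmst and in an intron of all 6 Rmst transcripts that span it. It had 3450 and 2063 reads, or 561 and 388 CPM, with a mean of 475 ± 122 CPM (SD, n = 2) and rank 129. Its rank was 121 in replicate 1 and 140 in replicate 2, the widest move of the 4 genes. Its neighbours were Mir383 at 528 ± 77.9 CPM, Mir540 at 477 ± 39.98 CPM, Mir760 at 465 ± 36.7 CPM and Mir328 at 460.1 ± 8.49 CPM. All 4 overlapped with it.

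**Figure D2:**
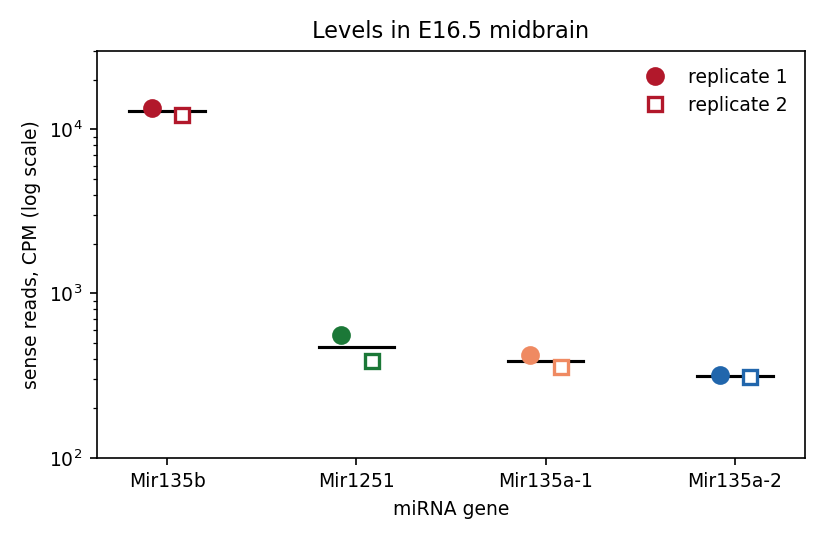
CPM of each gene in both libraries on a log axis, with filled circles for replicate 1, open squares for replicate 2 and a bar for the mean. Mir135b stands at 12829 CPM, the other 3 genes between 316 and 475 CPM, and every gene is higher in replicate 1.

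The order of the means was Mir135b, Mir1251, Mir135a-1 and Mir135a-2. The range of Mir1251 over the pools, 388 to 561 CPM, overlapped that of Mir135a-1, 358 to 421 CPM. Within each library Mir1251 was the higher, with 1.33 times the reads of Mir135a-1 in replicate 1 (exact 95% counting interval 1.27 to 1.40) and 1.08 times in replicate 2 (1.02 to 1.15). Mir135a-1 and Mir135a-2 did not overlap, with 358 CPM as the lower value of Mir135a-1 and 320.1 CPM as the higher value of Mir135a-2. With levels divided by hairpin length, the order was the same, at 13225, 565, 433 and 316 CPM per 100 bases.

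**Figure D3:**
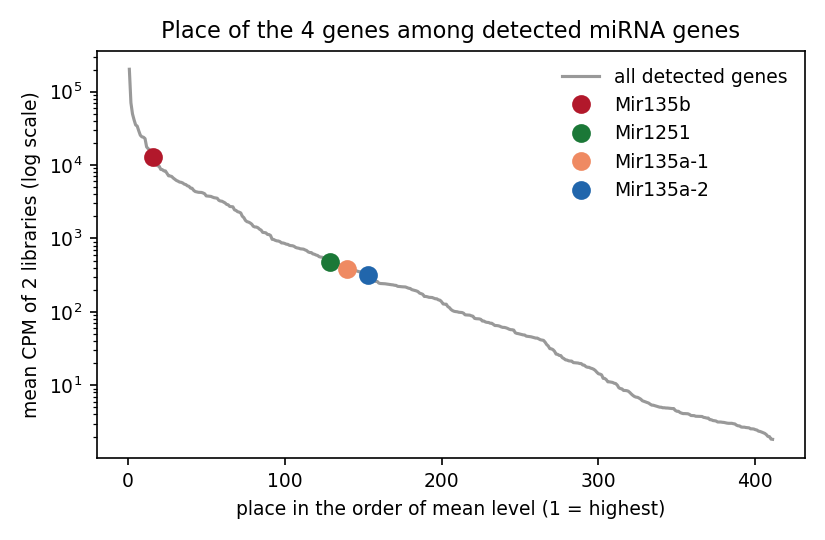
Mean CPM of the 411 detected genes on a log axis against their place in the order, with the 4 genes marked. Mir135b lies on the steep upper part at place 16, and Mir1251, Mir135a-1 and Mir135a-2 lie close together at 129, 140 and 153.

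Within the family, Mir135b held nearly all counted reads. Of the mir-135 reads it held 94.8% in replicate 1, with a 95% Wilson interval from 94.7 to 94.96, and 94.8% in replicate 2, with an interval from 94.6 to 94.9. Mir135a-1 held 2.95% (2.84 to 3.06) and 2.80% (2.68 to 2.93), and Mir135a-2 held 2.24% (2.15 to 2.34) and 2.44% (2.33 to 2.56). For each of the 3 genes the intervals of the libraries overlapped, for Mir135a-2 only slightly. Such overlap does not show that the shares were equal. In counted reads, the family as a whole took 1.43% of sense reads in replicate 1 and 1.28% in replicate 2. Reads inside the run shared by the mir-135a copies may be missing from all these shares, and their part was not tested. The Wilson intervals cover counting error only. They treat reads as independent, and reads without molecular identifiers are not independent molecules, so the intervals may be too narrow.

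The 2 mir-135a copies were close in counted reads. They lie on different chromosomes and under different hosts. Mir135a-1 had 1.31 times the reads of Mir135a-2 in replicate 1 (exact 95% counting interval 1.24 to 1.39) and 1.15 times in replicate 2 (1.07 to 1.23). Mir135a-1 was the higher copy in each pool. Mir135b had 32.2 and 33.8 times the reads of Mir135a-1, and 42.3 and 38.8 times those of Mir135a-2. Reads inside the shared run match both mir-135a copies, and their part in these ratios was not tested.

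The Rmst genes lie 64954 bases apart and on 1 strand, and Mir1251 was the higher of them in each pool. Mir1251 had 1.75 times the reads of Mir135a-2 in replicate 1 (exact 95% counting interval 1.66 to 1.85) and 1.24 times in replicate 2 (1.16 to 1.33). These intervals hold counting error only. Among detected genes of this level, 100 to 1000 CPM, the log2 ratio between the pools had an SD of 0.36, so the data do not show that the balance of the pair differed between the pools. In the annotation, 0 of the 14 Rmst transcripts spanned both genes. The transcripts around Mir1251 end before Mir135a-2, and those around Mir135a-2 start downstream of Mir1251.

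**Figure D4:**
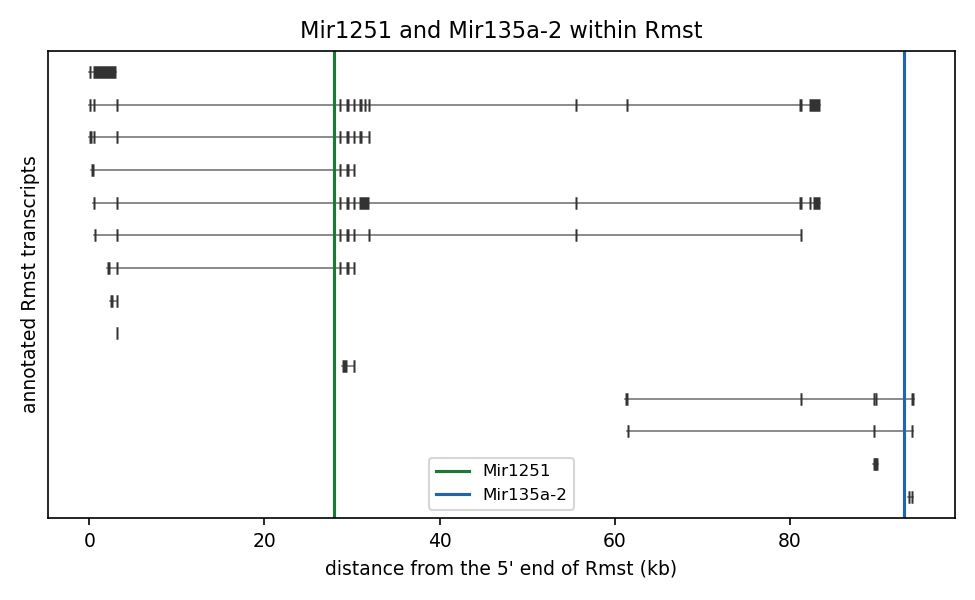
The 14 annotated Rmst transcripts, 1 per line, against distance from the 5′ end of Rmst in kb; thick blocks are exons, drawn at least 250 bases wide, and vertical lines mark Mir1251 and Mir135a-2. The Mir1251 line crosses 6 transcripts near the 5′ end, the Mir135a-2 line crosses 2 near the 3′ end, and no transcript meets both.

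All 4 genes had more CPM in replicate 1 than in replicate 2. This direction was common, since 246 of the 411 detected genes had a positive log2 ratio of replicate 1 over replicate 2. Of the 4 genes, 3 passed an exact binomial test of the reads. That test compares these libraries, covers counting error only and was adjusted over the 411 detected genes by the Benjamini-Hochberg method. It called 47.4% of detected genes at an adjusted p under 0.05, with 29.2% higher in replicate 1 and 18.2% lower, so a call was common. Scaled with TMM factors instead, the calls split into 95 higher and 90 lower, against 120 and 75 here.

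Mir1251 had the largest difference, a log2 ratio of replicate 1 over replicate 2 of 0.53 (exact 95% counting interval 0.45 to 0.61; 1.44-fold; adjusted p = 9.72e-40 by the exact binomial test). Mir135a-1 followed at 0.23 (0.15 to 0.32; adjusted p = 3.68e-07, same exact test), then Mir135b at 0.16 (0.14 to 0.17; adjusted p = 2.18e-96, same exact test). Mir135a-2 had a log2 ratio of 0.03 (-0.06 to 0.13; adjusted p = 0.641, same exact test), and this turned to -0.01 with TMM factors. The median log2 ratio was 0.19 over the 4 genes and 0.06 over all detected genes.

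When a spread between pools was assumed, none of these calls held. The size of that spread was set by choice and not estimated, so this result does not measure the spread between these pools. In edgeR's exact test with a fixed biological coefficient of variation of 0.2, the adjusted p was 1 for each of the 4 genes, and 6 of the 411 detected genes (1.46%) passed. Among the 119 detected genes between 100 and 1000 CPM, 5 had a higher log2 ratio than Mir1251, 20 than Mir135a-1 and 61 than Mir135a-2. Among the 91 genes at 1000 CPM or more, 19 had a higher ratio than Mir135b. Epithelial markers moved the same way between the pools. The exact binomial test called 7 of 7 epithelial genes, each with the higher level in replicate 1, and their median log2 ratio was 2.35. Of these, 5 also passed edgeR's exact test at the fixed coefficient of variation, among the 6 genes that passed it in all. Their most abundant gene, Mir203, had a log2 ratio of 0.20. The summed share of the 7 genes was 0.133% of sense reads in replicate 1 and 0.0689% in replicate 2, and their part in the result for the 4 genes was not tested.

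**Figure D5:**
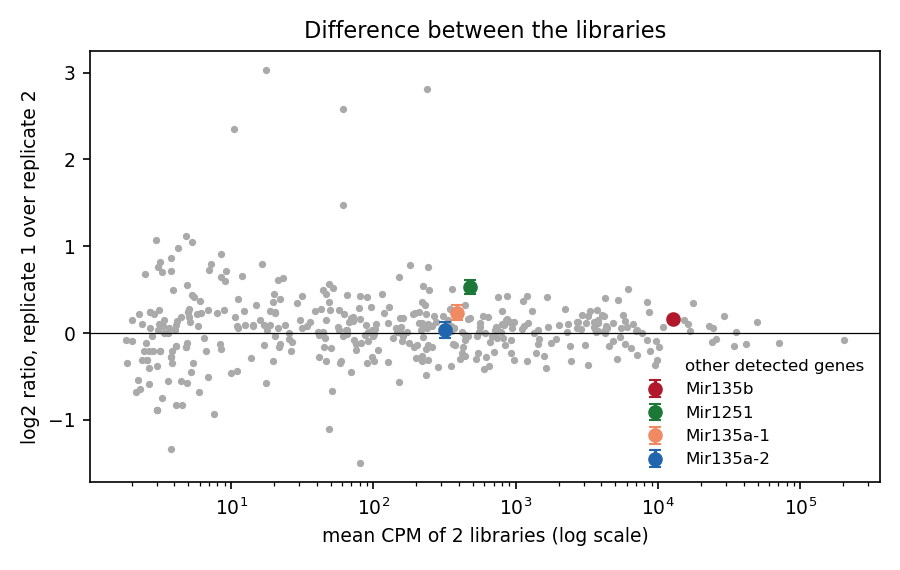
Log2 ratio of replicate 1 over replicate 2 against mean CPM (log axis) for all detected genes in grey and the 4 genes in colour, with exact 95% counting intervals as bars. Mir1251 at 0.53 stands above most genes of its level, and Mir135a-2 at 0.03 lies on the zero line within its interval.

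Other miRNAs known from midbrain dopamine neurons and their progenitors gave a scale for these levels. Of a list of 12 such genes, 11 were detected. The median was 249 CPM over all 12 genes and 437 CPM over the detected ones, which ranged from 4.84 to 15108 CPM. The highest were Mir137, then Mir7b at 3240.0 ± 313 CPM, whose product represses alpha-synuclein, and Mir132 at 1194 ± 189 CPM, an activity-regulated miRNA. Mir7-1 and Mir7-2, the other copies of the mir-7 family, stood at 755 ± 154 and 437 ± 69.5 CPM. In counted reads, Mir135b was higher in each pool than every listed gene but Mir137. Reads that match several copies of a family, such as mir-7, may be missing from these levels. Mir133b, known from a feedback circuit with the transcription factor Pitx3 in mouse dopamine neurons, had 6 and 2 reads and was the 1 listed gene that was not detected. In the exact binomial test 5 of the 11 detected genes of the list passed with a higher and 2 with a lower level in replicate 1. Over all 411 detected genes, 29.2% passed with a higher and 18.2% with a lower level. At the fixed coefficient of variation 0 of the list passed, against 1.46% of all detected genes.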

How the data were processed

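The authors deposited unnormalised read counts for each miRNA gene in a table per library, made on mm10 with GENCODE M4 per the text deposited beside them. The aligner and counter are not given in the sources used here. Of the 3 count columns, reads on the gene's strand were used. Library sizes left out the rows without a gene (unmapped reads were 15.6% and 15.2% of all reads, reads in no gene on the sense strand 3.99% and 4.14%). Identifiers were matched to GENCODE M21 without their version (1894 of 1973 genes), and CPM was taken over summed sense counts. Log2 ratios had 0.5 reads added. Named genes were the 4 genes, the 2 nearest in level on each side of each, the closest or overlapping genes, seed partners, and the 3 highest and any at 0 reads of the lists. Some list entries were not analysed here (Mir9-1, Mir126b, Mir142, Mir145 and Mir1a-2). Mir7-1, Mir7-2, Mir133b, Mir203, Mir222, Mir9-2 and the mir-124 genes were named outside that rule, after their values were seen. The members and lists were chosen with earlier results of these data known. The labels call the libraries biological replicates.

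Tools were Python 3.11.15, scipy 1.17.1, pandas 2.3.3, matplotlib 3.10.9 and R 4.3.3 with edgeR 4.0.16 and DESeq2 1.42.0 (size factors). The binomial test was tested on simulated data. Alternatives were other library sizes, read minimums of 1 and 50, 5 added reads, either-strand counts, a fixed coefficient of variation and single libraries.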

Additional observations from a re-analysis of the deposited data

How the results depend on the processing

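Directions and calls of the 4 genes were the same under each scaling, with counts on either strand and with 5 added reads, except that Mir135a-2, which passed no test, changed sign with TMM or DESeq2 size factors. At a fixed coefficient of variation of 0.2 the ratios of 0.16 (Mir135b), 0.23 (Mir135a-1) and 0.53 (Mir1251) no longer passed, and 6 genes were called in place of 195. That alternative assumes a spread between pools which counting error leaves out. Its size was set and not estimated from these data. With all reads of the library as divisor, the levels in CPM were 5729 for Mir135b, 174 for Mir135a-1, 141 for Mir135a-2 and 212 for Mir1251, since the divisor is larger. Mir135a-2 stood at 326 CPM without numbered copies in the library size and at 308 CPM with counts on either strand, beyond its small SD. Single libraries gave the values printed for each replicate, and no ratio could be had from 1 library. No paired analysis was possible because there is 1 group. With 2 pools, the SDs are themselves imprecise, and a difference between pools cannot be separated from one between libraries.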
